A study of Mus musculus with 4 samples.

Results

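Lef1 and Synpo2 neurons are described here, a set of thalamic glutamatergic neurons in the mouse found by single-nucleus RNA-seq, an assay that counts RNA molecules in isolated nuclei by their unique molecular identifiers (UMIs). A nucleus entered the set when mitochondrial genes gave under 5% of its UMIs, when it had at least 4000 UMIs, and when at least 4 of the 5 neuronal genes Rbfox3, Snap25, Syt1, Myt1l and Celf4 were detected. It further needed at least 1 UMI of Slc17a6 and more of it than of Gad1 and Gad2 together, at least 3 UMIs of Tcf7l2, and at least 3 UMIs of Lef1 and Synpo2 together, which had to be no fewer than those of Necab1. Nwd2 had to stay under 10 UMIs and Npsr1 under 5. The rule selected 2244 of 32291 nuclei with under 5% mitochondrial UMIs, and of 32332 barcodes in all. These made up 2244 of the 3372 nuclei with the neuronal and glutamatergic marks and Tcf7l2, which are called thalamic glutamatergic neurons below.

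Thalamic tissue came from wild-type C57BL6 mice of 7 to 8 weeks, taken 7 days after an injection into the right ventral posterior nuclei (VPM and VPL). The NS group received saline, and the COL group received Coll IV, a collagenase that opens vessel walls and causes bleeding, at 0.01 U per 10 nl. Each group had 2 libraries, and each library pooled 3 mice, so n was 2 in either group and differences between single mice could not be seen. The injection was on one side, and how far each library held the injected nuclei or their surroundings cannot be told apart from the treatment.

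Relay neurons of the thalamus are excitatory cells that pass sensory and other signals to the cortex, and they use the vesicular glutamate transporter encoded by Slc17a6. Tcf7l2 and Lef1 encode related DNA-binding factors of the TCF/LEF family, which carry the signal of the Wnt pathway from β-catenin to its target genes, and Tcf7l2 is known for its high level in the developing and adult thalamus. Synpo2 encodes synaptopodin-2, a protein that binds actin and α-actinin. First-order relay nuclei, which receive ascending sensory input, and higher-order and midline nuclei, which receive much of their input from the cortex, differ in their gene expression.

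The set held 422 and 591 nuclei in NS replicates 1 and 2, and 858 and 373 in COL replicates 1 and 2, and values for the 4 libraries are given in this order throughout. The median was 18923.5, 16079, 19683 and 18763 UMIs per nucleus, and the nuclei summed to 8736309, 10127768, 18867403 and 7641491 UMIs. Between 8 and 31 barcodes were shared by any pair of libraries, and 1 of them was in the set in both libraries. At least 3 of the 8 oligodendrocyte markers were detected in 1975 of the 2244 nuclei, and no doublets were removed, so UMIs of oligodendrocyte genes were present in most nuclei of the set.

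All 4 libraries showed the 6 marker genes of the set, and 4 of these are in the rule, so their levels are a description. Levels are given as CPM, the UMIs of a gene summed over the nuclei of a library and scaled to the same total in every library. Lef1 (chr3:131110471-131224356, plus strand, GRCm38) stood at 637, 796, 716 and 665 CPM in the 4 libraries. Synpo2 lies on the same chromosome on the minus strand (chr3:123076519-123236149) and had 728, 825, 859 and 680 CPM. Tcf7l2 had 770, 753, 926 and 834 CPM, and Slc17a6 had 192, 164, 164 and 174 CPM. NS and COL libraries overlapped in Lef1, Synpo2 and Slc17a6. For Tcf7l2 both COL libraries lay above both NS libraries, as they did for 24.2% of all genes tested.

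Tspear and Abhd12b were not part of the rule. Tspear had 62.0, 61.6, 77.2 and 65.4 CPM in the 4 libraries, and no library of the Necab1 neurons, the glutamatergic neurons without Tcf7l2 or the GABA neurons had more than 14.5 CPM. Abhd12b, which encodes a protein of the α/β-hydrolase family, had 169, 157, 167 and 190 CPM, against at most 20.9 CPM in those other sets. Both genes were thus highest in this set in every library, although neither was found in every nucleus. Tspear was detected in 32.2% to 35.3% of the nuclei of a library and Abhd12b in 42.7% to 54.4%. When each nucleus was thinned to 4000 UMIs, Abhd12b was seen in 26.5%, 26.7%, 30.0% and 32.2% of the set and in 1.86%, 1.37%, 7.40% and 3.46% of the GABA neurons.

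**Figure D1:**
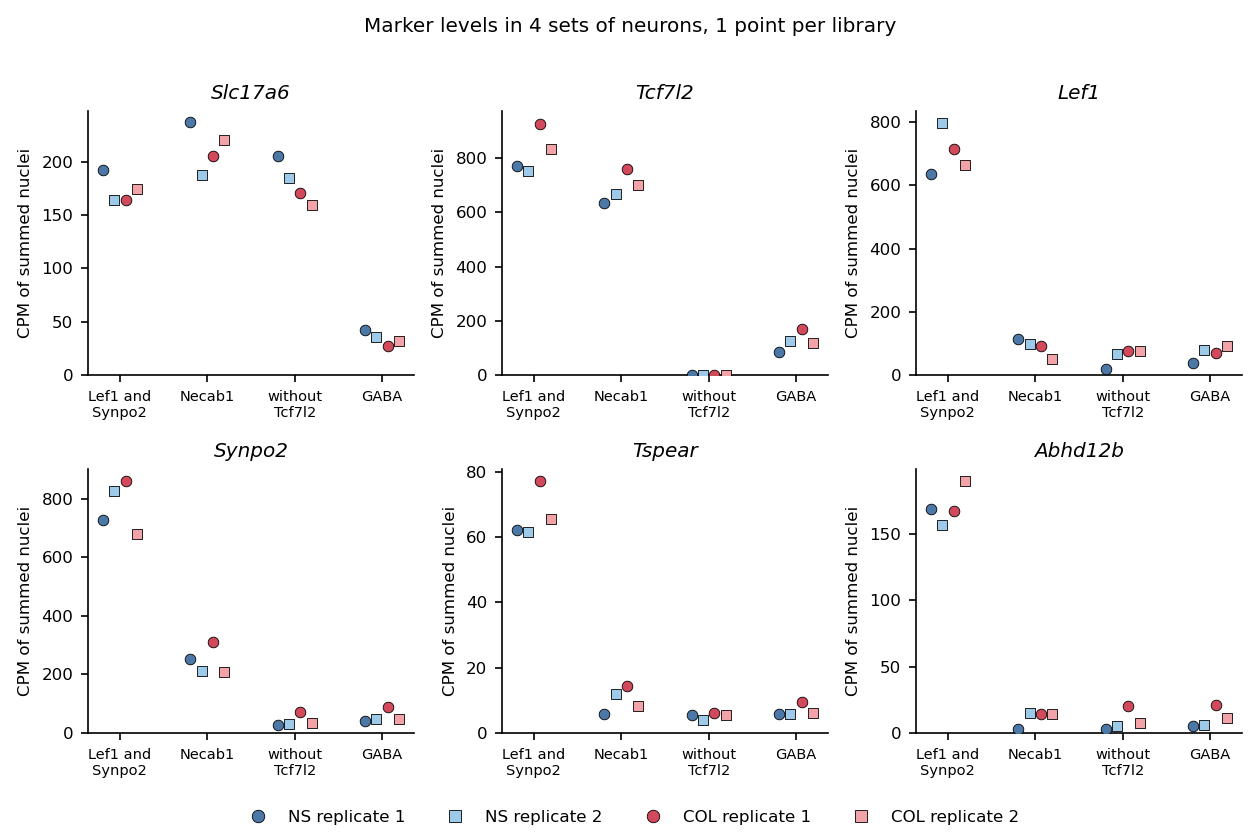
Level of each marker gene (CPM of the summed nuclei, vertical axes) in the Lef1 and Synpo2 neurons and in 3 other sets of neurons, with 1 point per library. Lef1, Synpo2, Tspear and Abhd12b were highest in the Lef1 and Synpo2 neurons of every library, and Tcf7l2 and Slc17a6 were shared with the Necab1 neurons.

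Most of the nuclei carried Lef1 and Synpo2 together. Both genes reached 3 UMIs in 1752 nuclei, while 53 nuclei had Lef1 with no UMI of Synpo2 and 131 had Synpo2 with no UMI of Lef1. The median of Lef1 was 11, 12, 12 and 9 UMIs per nucleus in the 4 libraries, and that of Synpo2 was 12, 12, 15 and 10. At the border of the rule, 79 members had exactly 3 UMIs of the 2 genes together, and 121 nuclei that met every other condition had 2. Necab1, a neuronal calcium-binding protein gene, was not absent from the set, with 338, 216, 327 and 209 CPM, but it stood below the 726, 631, 733 and 515 CPM of the Necab1 neurons, as the rule requires.

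The set formed 65.8% and 65.7% of the thalamic glutamatergic neurons in NS replicates 1 and 2, and 73.8% and 55.8% in COL replicates 1 and 2. The COL libraries lay on either side of the NS libraries. The mean share was 65.8% ± 0.067 (SD, n = 2) in NS and 64.8% ± 12.7 (SD, n = 2) in COL, a difference of -1.02 percentage points. The two-sided exact permutation test gave p = 1, and with 2 libraries against 2 it cannot go below 0.333. Without COL replicate 2 the difference was 7.99 points and without COL replicate 1 it was -10.0 points. Of all nuclei with at least 4000 UMIs, 6.28%, 10.1%, 16.6% and 6.64% were in the set, so its share of the tissue differed among libraries of 1 group.

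The relay gene Prkcd, the RNA-editing family gene Adarb2 and the matrix gene Fras1 were several times higher in the Lef1 and Synpo2 neurons than in the Necab1 neurons, the other named set of thalamic glutamatergic neurons (433 nuclei with at least 3 UMIs of Necab1 and more of it than of Lef1 and Synpo2). The sets were separated by Lef1, Synpo2 and Necab1 UMIs in the same nuclei, so the contrast is described with no test. A gene was counted when it differed at least 2-fold in each of the 4 libraries, with counts under 3 set to 3. Of 9814 genes measured, 98 were higher in the Lef1 and Synpo2 neurons (0.999%) and 125 were lower (1.27%). Genes of the rule made up 2 of the higher and 1 of the lower ones.

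Prkcd, the gene of protein kinase C delta and a known marker of first-order relay neurons, had 153, 218, 236 and 249 CPM in the Lef1 and Synpo2 neurons of the 4 libraries, against 10.1, 6.04, 28.5 and 17.7 CPM in the Necab1 neurons. Adarb2 had 1988, 3391, 2177 and 2058 CPM against 235, 448, 335 and 332 CPM. Fras1 had 357, 412, 345 and 331 CPM against 45.4, 59.4, 52.1 and 48.2 CPM. None of these libraries overlapped between the sets, and the folds were at least 8.29 for Prkcd, 6.20 for Adarb2 and 6.61 for Fras1.

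Slc17a7, the gene of the vesicular glutamate transporter VGLUT1 that is typical of cortical neurons, had 20.8 to 32.5 CPM in the set and 2.77 to 6.71 CPM in the Necab1 neurons. Slco2a1, a prostaglandin transporter gene, had 24.5 to 65.6 CPM against 3.32 to 9.07 CPM. Fam163a and Serinc2 also ranked among the 10 genes with the highest smallest fold, beside Abhd12b and Tspear.

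Genes lower in the set came from other classes. Glis3, which encodes a zinc finger transcription factor, had 11.4, 6.91, 19.6 and 17.8 CPM against 78.9, 48.3, 114 and 104 CPM in the Necab1 neurons. Syt10, a synaptotagmin gene of calcium-dependent secretion, had 6.41 to 9.62 CPM against 33.2 to 50.8 CPM, and Rab3b, a small GTPase gene of vesicle release, had 4.05 to 9.68 CPM against 21.2 to 44.2 CPM. Galr1 encodes a receptor for galanin and had 1.09 to 3.71 CPM against 6.04 to 17.7 CPM. Rspo1 encodes an R-spondin that amplifies Wnt signalling and had 1.38 to 2.62 CPM against 9.41 to 18.3 CPM. Itga8 (an integrin), St8sia2 (a polysialic acid synthase), Fam20a and Vwa5b1 were also among the first 10, with folds of 3.50 to 9.99 over the libraries.

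**Figure D2:**
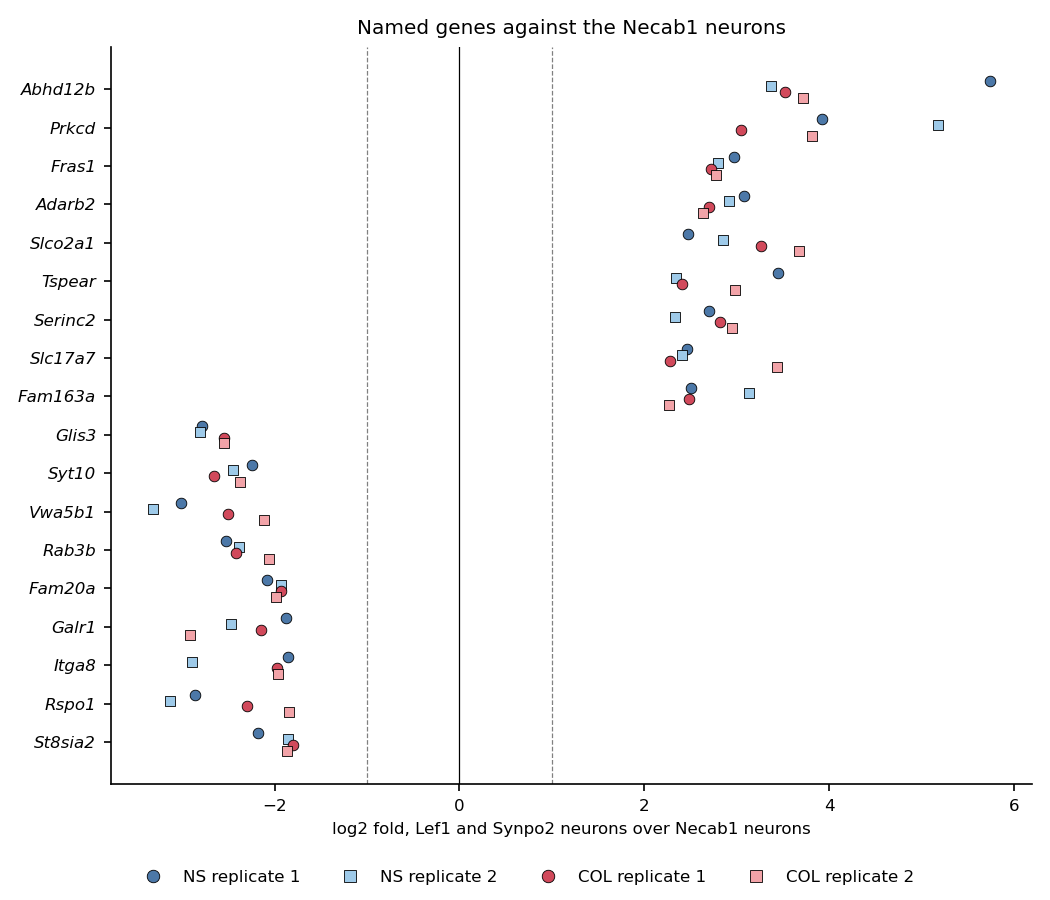
log2 fold of the level in the Lef1 and Synpo2 neurons over that in the Necab1 neurons (horizontal axis), with 1 point per library, for genes among the first 10 in each direction. Dashed lines mark 2-fold, and each gene stayed beyond its line in all 4 libraries.

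Of 10 measured genes in a list for first-order relay neurons, Tnnt1, Prkcd and Grin2c passed 2-fold higher in every library and none passed lower, against 0.999% and 1.27% of all genes. The list's median log2 fold was 0.73, while that of all genes was -0.09. Grin2c, a subunit gene of the NMDA receptor, had 66.3, 69.1, 80.4 and 87.5 CPM against 15.1, 5.04, 10.5 and 7.75 CPM. Of 7 measured genes in the list for higher-order and midline nuclei, Calb2 (calretinin) was lower, with 11.2 to 24.7 CPM against 38.8 to 57.4 CPM, and the median log2 fold was -0.65.

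Of 40 measured Wnt genes, 1 was higher and 2 were lower, against 0.999% and 1.27% of all genes. Fzd6, a Wnt receptor gene, was higher, and Rspo1 and the receptor gene Ror1 were lower. Ror1 had 39.9, 14.0, 52.3 and 50.3 CPM in the Lef1 and Synpo2 neurons and 204, 154, 198 and 173 CPM in the Necab1 neurons. No gene among the 23 measured regional transcription factors passed 2-fold in every library. Rora, which encodes an orphan nuclear receptor of relay neurons, had 4131, 4026, 4551 and 4024 CPM against 2641, 2492, 2999 and 2759 CPM.

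Among 42 measured ion channel genes, 1 was higher and 3 were lower, against 0.999% and 1.27% of all genes. Kcnc2, a gene of Kv3 potassium channels that serve fast spiking, had 2535, 3097, 2643 and 2351 CPM against 1219, 1381, 1321 and 1092 CPM. Kcnip1, whose product modulates A-type potassium channels, had 83.8, 55.1, 159 and 160 CPM against 355, 348, 540 and 466 CPM, and Cacna1e, the R-type calcium channel gene, had 177, 129, 167 and 209 CPM against 393, 394, 395 and 445 CPM. Of 20 measured neuromodulator receptor genes, Adrb1 (β1-adrenergic) was higher, and Oprk1 (κ-opioid) and Cnr1 (cannabinoid) were lower. Of 14 measured GABA receptor genes, Gabrg1 (a GABA-A subunit) was lower, again against 0.999% higher and 1.27% lower of all genes. The 14 measured injury genes and the 17 measured genes of heat shock, oxidative stress and haem had no gene past 2-fold.

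Within the set, nuclei that leaned to Lef1 (928 nuclei with more UMIs of Lef1 than of Synpo2) were set beside nuclei that leaned to Synpo2 (1227). Few other genes differed between them in every library. Of 9306 genes measured, 1 was at least 2-fold higher in the Lef1-leaning nuclei of every library (0.0107%) and none was lower (0%). That gene was Ebf2, which encodes a transcription factor of neuronal differentiation, with 9.62, 17.3, 8.35 and 42.1 CPM against 2.69, 5.18, 3.47 and 3.95 CPM. Ntng2, an axon guidance gene, had log2 folds of 1.55, 1.36, 1.34 and 0.83, and so missed the rule in COL replicate 2 alone. Genes past 2-fold in the COL libraries alone were passed over by this rule and not counted. Egr1 was one of them, with log2 folds of -0.10, 0.59, 1.53 and 1.84.

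Adarb2 was among the genes that varied most from nucleus to nucleus. Each nucleus was thinned to 4000 UMIs, and genes were ranked by the Fano factor, the variance divided by the mean, as the median of the 4 libraries. Over 7043 ranked genes the median Fano factor was 1.05, close to that of counting error. The first 12 were Malat1 (33.0), Kcnip4 (18.4), Lsamp (11.9), Adarb2 (10.2), Tenm2 (9.76), Kirrel3 (9.59), Pcdh9 (8.71), Rbfox1 (8.71), Gm28928 (8.48), Lrrtm4 (8.07), Gpc5 (7.45) and Cntn5 (7.14). Malat1 is a nuclear long non-coding RNA, Kcnip4 a modulator of A-type potassium channels, and Lsamp, Tenm2, Kirrel3, Pcdh9, Lrrtm4 and Cntn5 encode surface proteins of adhesion and synapse formation.

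Adarb2 went with Lef1 and Synpo2 over the nuclei of a library, and less with Tcf7l2, at a Pearson correlation of 0.055 to 0.145. Its Pearson correlation with Lef1 was 0.435 to 0.541 in the 4 libraries, with Synpo2 0.333 to 0.467 and with Rora 0.374 to 0.469, while with Lsamp it was -0.425 to -0.330. Lef1 and Synpo2 correlated at 0.276 to 0.371, and Kirrel3 with Lrrtm4 at 0.401 to 0.455. These are correlations over the 422, 591, 858 and 373 nuclei of each library after thinning, nuclei of 1 library share their mice and preparation, and the rule itself used Lef1 and Synpo2, so they carry no p.

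For COL against NS, no gene passed an adjusted p of 0.05 in the Lef1 and Synpo2 neurons. Of 17082 genes tested with edgeR's quasi-likelihood test and Benjamini-Hochberg adjustment, 0 were called (0%), and the smallest adjusted p was 0.0594. At an unadjusted p under 0.05, 1410 genes were higher in COL (8.25%) and 1770 were lower (10.4%). Another tool, DESeq2, called 192 genes higher (1.15%) and 305 lower (1.83%) of 16658 tested. Both COL libraries lay above both NS libraries in 24.2% of the genes and below them in 25% of the genes. Leaving out a library gave 1488 calls without NS replicate 1, 86 without NS replicate 2, 1 without COL replicate 1 and 0 without COL replicate 2. The genes below are therefore given by their values, and fewer nuclei of a type and less RNA per nucleus cannot be told apart in a sum.

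Igf2bp2 and Stat3 had the smallest p-values among the genes higher in COL with at least 10 CPM on average, and the interleukin-6 receptor gene Il6ra was among the first 5. Igf2bp2 encodes a protein that binds messenger RNAs and had 1.72 and 1.58 CPM in NS replicates 1 and 2, and 16.4 and 24.1 CPM in COL replicates 1 and 2. Its log2 fold change was 3.60 ± 0.29 (SE), with an adjusted p of 0.0594 by edgeR's quasi-likelihood test. With the rule applied to nuclei thinned to 4000 UMIs, its log2 fold change was 1.66, and over its 13 alternatives the adjusted p ranged from 1.66e-25 to 0.15. Stat3, the transcription factor gene of interleukin-6 family signalling, had 37.9 and 34.3 CPM in NS and 83.8 and 93.8 CPM in COL, a log2 fold change of 1.31 ± 0.13 with the same adjusted p. Il6ra, the gene of the interleukin-6 receptor, had 4.01, 2.57, 13.6 and 20.0 CPM, a log2 fold change of 2.35 ± 0.30 with an adjusted p of 0.0950 in that edgeR fit. The COL libraries lay above the NS libraries in each of the 3 genes, which was fixed since only genes with no overlap were taken. Igf2bp2 and Il6ra reached the average of 10 CPM only through their COL libraries.

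A further 5738 nuclei with at least 4000 UMIs had under 4 of the 5 neuronal genes and are called non-neuronal nuclei here. They were not free of neuronal RNA, and the 5 genes summed to 767, 755, 1034 and 866 CPM in them. Stat3 had 64.6, 57.5, 193 and 180 CPM and Il6ra had 5.58, 4.29, 50.1 and 62.0 CPM in these nuclei of the 4 libraries. Stat3 and Il6ra were thus higher in COL there too, and reached higher levels than in the set. Igf2bp2 had 6.30, 5.86, 17.6 and 13.3 CPM in those nuclei. How much of a gene's level in the set came from RNA of other cells was not tested.

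Zbtb16 encodes a zinc finger repressor and had 10.9, 21.6, 65.6 and 79.7 CPM in the set, with a log2 fold change of 2.14 ± 0.30. It was higher in COL elsewhere too, with 50.0, 60.5, 248 and 207 CPM in the non-neuronal nuclei and 25.9, 33.8, 76.8 and 73.1 CPM in the GABA neurons. Rhoq, a gene of a small GTPase of the cytoskeleton, had 32.7, 30.4, 68.1 and 69.2 CPM, a log2 fold change of 1.13 that was 0.40 with the rule applied to thinned nuclei, where that of Kctd8 was 0.58 and that of Pxn 1.16. Taco1, a gene of mitochondrial translation, had 15.2, 15.2, 39.3 and 40.3 CPM, and Aldh1l2, a mitochondrial folate enzyme gene, had 4.58, 4.05, 13.7 and 17.7 CPM. Also higher in both COL libraries were Dlgap2, a scaffold gene of excitatory synapses (49.4 to 73.7 CPM in NS, 146 to 177 CPM in COL), Cntn2 (43.1 to 53.6 and 90.8 to 112 CPM), Kctd8, Agap1 and Pxn. The log2 fold changes of these 9 genes lay between 0.97 and 2.14, and their adjusted p between 0.0812 and 0.118 in the edgeR test.

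Lower levels in COL were led by genes of several functions. Lrtm1 had 42.4, 78.2, 9.75 and 19.6 CPM, a log2 fold change of -2.10 ± 0.38. Tubb2a, a β-tubulin gene, had 44.8, 37.8, 14.0 and 22.8 CPM. The respiratory chain genes Cox5a (42.2, 48.7, 19.3 and 26.3 CPM) and Ndufa4 (34.6, 42.3, 12 and 19.8 CPM) were in the same group. So were Calm2 (a calmodulin gene), Caly, Tspyl4, Slc6a11 (a GABA transporter gene), Slc24a5, Lysmd4, Nell1os and Srrm4os, with an adjusted p of 0.126 for all 12 in the edgeR test. Slc24a5 reached the average of 10 CPM only through its NS libraries. In the non-neuronal nuclei Lrtm1 had 12.2, 9.73, 2.91 and 5.13 CPM and Tubb2a had 79.6, 61.1, 13.6 and 27.4 CPM, so both were lower in COL there as well. Slc6a11 had 520, 274, 61.2 and 91.5 CPM in those nuclei, against 25.4, 20.4, 9.65 and 11.3 CPM in the set. The other genes of the 12 were lower in both COL libraries of the non-neuronal nuclei too.

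**Figure D3:**
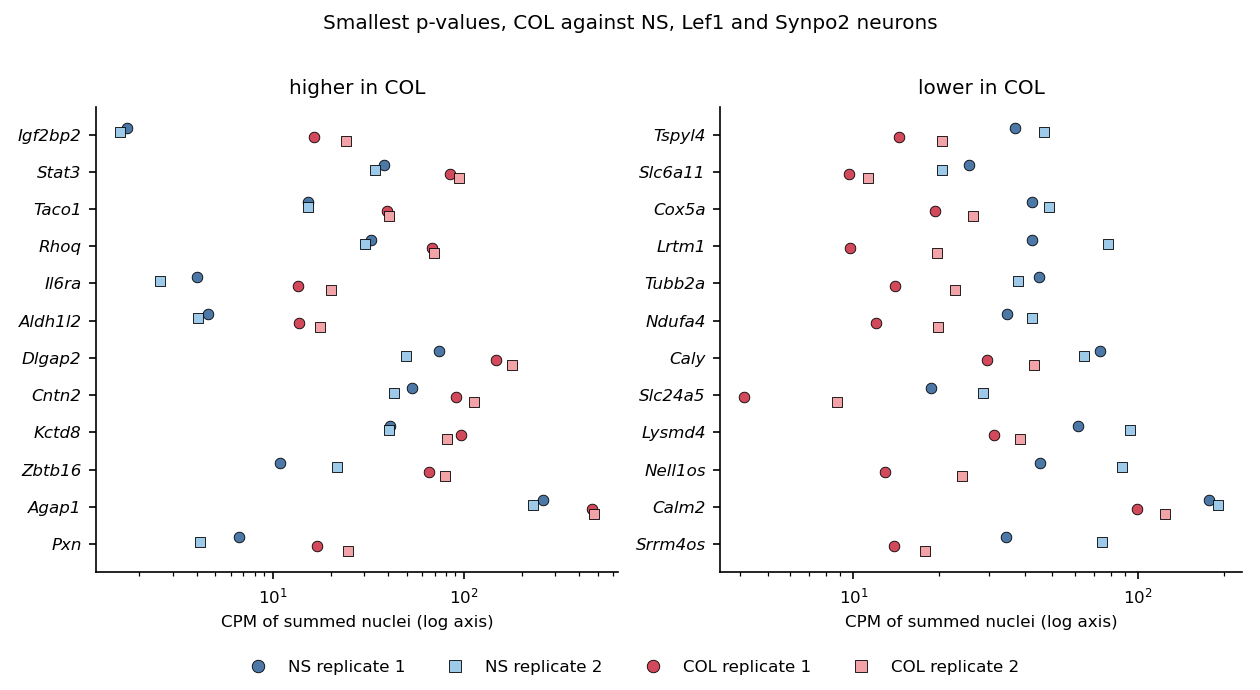
Level (CPM of the summed nuclei, horizontal log axes) in the Lef1 and Synpo2 neurons of each library, for the 12 genes with the smallest p-values in each direction among those with at least 10 CPM on average and no overlap between NS and COL. The absence of overlap was thus fixed by the choice, and no gene reached an adjusted p of 0.05.

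Injury genes had the largest share of higher genes among the lists of neuronal and pathway genes in the fit of all libraries. Without NS replicate 2 the first-order relay list had a larger share. Of 28 tested genes of injury and axon regrowth, 11 were higher at an unadjusted p under 0.05 (against 8.25% of all genes) and 1 was lower (against 10.4%), and the list's median log2 fold change was 0.43, against 0.00 for all genes. DESeq2 called 4 of them higher, against 1.15% of all genes. Without COL replicate 2, 6 of 29 were higher (20.7%, against 4.38% of all genes in that fit) and 3 were lower (10.3%, against 10.6%). When the rule was applied to nuclei thinned to 4000 UMIs, 2 of 15 were higher (13.3%, against 6.66%) with a median of -0.01.

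Atf3, the transcription factor gene of the injured neuron, had 1 and 1 UMIs in the 2 NS libraries and 100 and 47 UMIs in the 2 COL libraries. The rate was 52.3 times as high in COL, with an exact 95% interval of 14.2 to 436 that covers counting error only. Its UMIs came from 40 of 858 and 20 of 373 nuclei of the COL libraries. Atf3 had 0, 0.143, 15.5 and 17.4 CPM in the non-neuronal nuclei, and 0.114, 0.0987, 5.30 and 6.15 CPM in the set. In the GABA neurons it had 0, 0, 10.1 and 7.46 CPM.

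Hrk, a gene of the neuronal apoptosis activator harakiri, had 3.21, 2.57, 12.1 and 14.3 CPM and was not higher in COL in the non-neuronal nuclei, where it had 6.59, 3.29, 5.01 and 3.85 CPM. Bbc3, the gene of the apoptosis activator PUMA, had 2.06, 1.18, 3.92 and 5.50 CPM in the set and 4.58, 2.29, 2.21 and 2.82 CPM in the non-neuronal nuclei. Ddit3, the stress factor gene CHOP, had 7.67, 5.04, 13.9 and 18.5 CPM in the set. It was higher in COL in the non-neuronal nuclei too, with 9.02, 7.87, 13.6 and 16.3 CPM. Ecel1, a peptidase gene of injured neurons, had 5.27, 1.97, 6.94 and 11.5 CPM in the set and 12.9, 3.58, 5.25 and 10.0 CPM in those nuclei. Gap43, a growth cone gene, had 212, 154, 189 and 181 CPM with overlapping groups, and the neuropeptide gene Gal was the one lower, with 8.47, 2.27, 0.636 and 2.22 CPM.

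The list of actin and α-actinin partners came next. Of its 24 tested genes 7 were higher (29.2%, against 8.25% of all genes) and 1 was lower (4.17%, against 10.4%). Its median log2 fold change was 0.18. Sgcd (a sarcoglycan gene) had 281, 331, 502 and 636 CPM, Lpp (a gene of focal adhesions) had 62.4, 45.8, 84.4 and 94.2 CPM, and Actn1 (α-actinin-1) had 41.1, 31.5, 48.5 and 52.2 CPM. Sgcd was not higher in COL in the non-neuronal nuclei (415, 374, 332 and 337 CPM). Fewer genes of this list were higher without COL replicate 2, NS replicate 2 or COL replicate 1, and fewer of all genes were higher in those fits too.

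In the list of adhesion and axon guidance, 8 of 46 genes were higher (17.4%, against 8.25% of all genes) and 1 was lower (2.17%, against 10.4%). Ephb1, an ephrin receptor gene, had 37.0, 46.7, 67.6 and 139 CPM, and Cdh4, a cadherin gene, had 260, 242, 424 and 373 CPM. Erbb4, a neuregulin receptor gene, had 161, 166, 232 and 279 CPM. Of 44 ion channel genes 4 were higher (9.09%, against 8.25% of all genes) and 1 was lower. The higher ones included Kcnip1 (83.8, 55.1, 159 and 160 CPM, log2 fold change 1.21 ± 0.19) and Cacna1i (a T-type calcium channel gene; 15, 10.1, 20.9 and 28.5 CPM). Kcnip1, which was lower in this set than in the Necab1 neurons, thus stood higher in COL. The number of lower adhesion genes rose without COL replicate 1, and that of higher channel genes rose without either NS library.

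Glutamate receptor genes had 4 of 24 higher (16.7%, against 8.25% of all genes) and 1 lower (4.17%, against 10.4%). Grm4, a presynaptic metabotropic receptor gene, had 161, 119, 254 and 249 CPM. The number of higher genes in this list rose without NS replicate 1. It fell without NS replicate 2 or either COL library, and fewer of all genes were higher in those fits too. None of 14 GABA receptor genes passed an unadjusted p of 0.05, and Gabrb1 had 1407, 1195, 1204 and 999 CPM. With library sizes alone 3 of the 14 GABA receptor genes were lower, against 1675 of 17082 among all genes. Some also passed as lower when COL replicate 1 or either NS library was left out. The neuromodulator receptors had 3 of 27 higher (11.1%) and 2 lower (7.41%), near the shares of all genes, and Chrm3, a muscarinic receptor gene, had 614, 410, 541 and 538 CPM with overlapping groups. The number of higher neuromodulator receptors rose without NS replicate 1 and fell without NS replicate 2 or COL replicate 2.

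The counts of relay identity genes depended on the libraries. Of 12 first-order relay genes 1 was higher (Grin2c) and 1 was lower (8.33% either way, against 8.25% and 10.4% of all genes), and of 11 higher-order and midline genes 2 were lower, the neuropeptide genes Cck (20.0, 41.4, 12.2 and 12.3 CPM) and Tac1. Without NS replicate 2, 6 of 12 first-order genes were higher and 0 lower, and 6 of 11 higher-order genes were lower, against 5.83% and 5.56% of all genes in that fit. Without COL replicate 2 the counts of both lists changed as well. The regional transcription factors had 3 of 29 higher (10.3%) and 2 lower (6.90%), near the shares of all genes, and Rora overlapped between the groups. Of 58 Wnt genes 5 were higher (8.62%) and 3 lower (5.17%), close to or under the shares of all genes. They included Wnt3 (29.9, 23.1, 38.7 and 36.0 CPM), Znrf3, the gene of an enzyme that removes Wnt receptors (145, 129, 104 and 87.4 CPM), and Wnt9b. The counts of Wnt genes moved with a library left out, and were largest in each direction without NS replicate 1. Axin2, a direct target of Wnt signalling, had 21.3, 16.1, 18.7 and 16.4 CPM with overlapping groups.

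**Figure D4:**
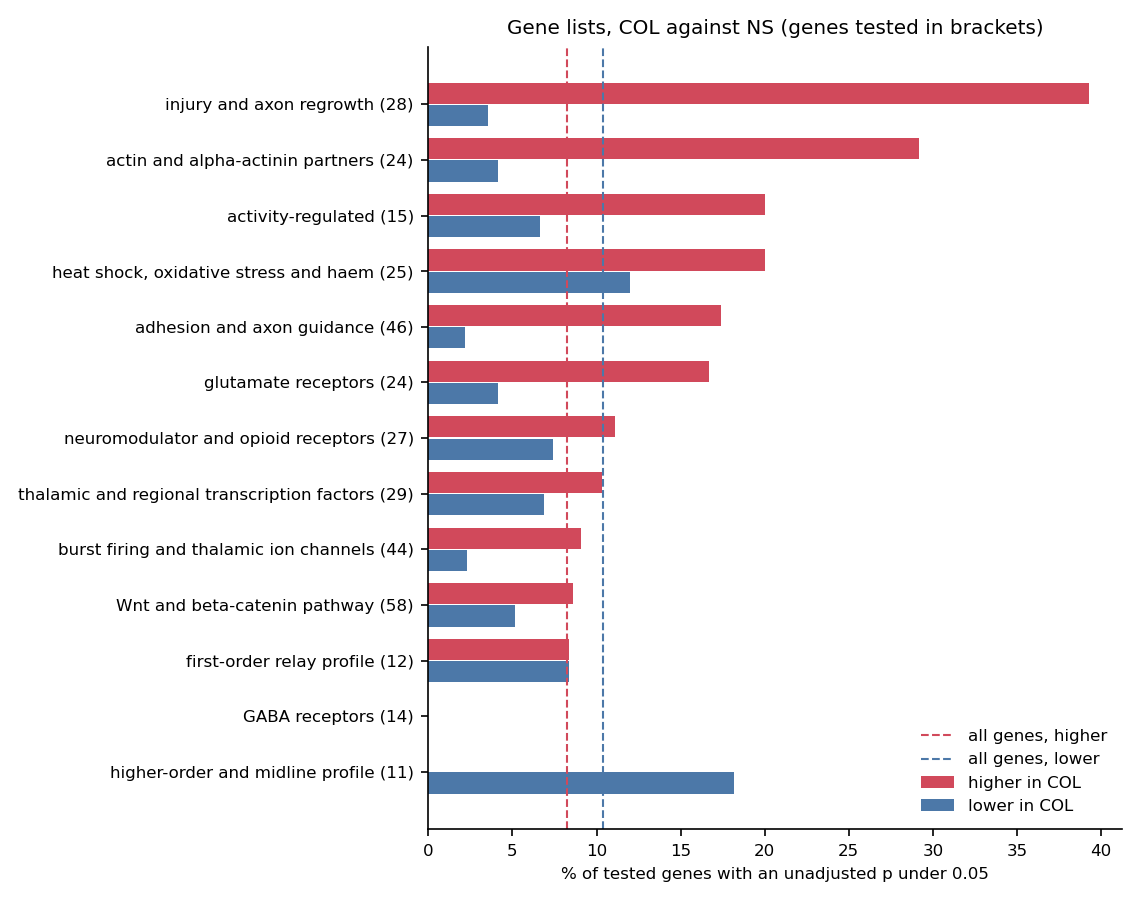
Share of the tested genes of each list with an unadjusted p under 0.05 in COL against NS (horizontal axis, %), higher and lower in COL, with the number tested in brackets. Dashed lines mark the shares of all genes, 8.25% higher and 10.4% lower, and no gene of any list reached an adjusted p of 0.05 in edgeR's test.

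Of 15 activity-regulated genes 3 were higher and 1 was lower, against 8.25% and 10.4% of all genes. Egr1 had 9.84, 7.01, 13 and 16.1 CPM and Per1, a clock gene, had 14.9, 17.7, 26.6 and 25.1 CPM, while Npas4 was lower with 11.6, 8.79, 6.78 and 4.58 CPM. Without COL replicate 1 the balance of this list turned to 1 higher and 4 lower, against 5.19% and 4.15% of all genes in that fit, with a median log2 fold change of -0.27. Of 25 genes of heat shock, oxidative stress and haem, 5 were higher and 3 lower, against 8.25% and 10.4% of all genes. These counts became 3 and 5 of 27 without NS replicate 1 (8.12% and 12.85% of all genes in that fit), 4 and 5 of 26 without COL replicate 2 (4.38% and 10.6%), and 4 and 0 of 26 without COL replicate 1. Hmox1, the haem oxygenase gene, had 2, 0, 171 and 83 UMIs in the set and up to 105 CPM in the non-neuronal nuclei of COL, against 9.06 and 10.9 CPM in the set. Apoe and Abca1, genes of lipid transport, did not pass an unadjusted p of 0.05, but both were higher at that threshold without COL replicate 1, and Apoe was lower without COL replicate 2. Neither had an adjusted p under 0.05 in any of the 13 alternatives. Of 6 nuclear RNAs, Neat1 was higher with 28.3, 39.8, 70.4 and 106 CPM, and it had 559, 674, 1394 and 1637 CPM in the non-neuronal nuclei.

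Macrophage genes were higher in COL in neurons and in other nuclei. All 5 tested macrophage markers were higher in COL at an unadjusted p under 0.05 in the Lef1 and Synpo2 neurons, against 8.25% of all genes. Their list, 8 genes in all with Cd163 at 0 in both COL libraries, summed to 5.15 and 3.46 CPM in NS and 26.9 and 68.8 CPM in COL. The GABA neurons gave 3.92, 4.78, 27.3 and 74.2 CPM for the same list, and the non-neuronal nuclei gave 4.15, 6.72, 440 and 643 CPM. The lysozyme gene Lyz2 had 0, 4, 163 and 258 UMIs in the set. Oligodendrocyte markers summed to 578, 824, 517 and 1080 CPM and astrocyte markers to 720, 576, 516 and 519 CPM. The part of these RNAs in the comparison of COL with NS was not tested. With the tenth of each library's nuclei that was richest in such markers left out, 10 of 28 injury genes and 7 of 24 actin partner genes were higher, against 7.98% of all genes, and 3 of 4 tested macrophage markers still were.

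Atf3, Igf2bp2 and Hrk were found together in a small share of the nuclei, and this view was chosen after the values were seen. At least 2 of the 3 genes were detected in 2 of 422, 1 of 591, 56 of 858 and 28 of 373 nuclei, which is 0.474%, 0.169%, 6.53% and 7.51% of the libraries. The exact 95% intervals were 0.057% to 1.70% and 0.0043% to 0.939% in NS, and 4.97% to 8.39% and 5.05% to 10.7% in COL. These intervals cover counting error within a library only. The COL libraries lay above the NS libraries, by 6.70 percentage points on average. The 3 genes were themselves higher in COL in these same libraries and were picked with that known, so this difference is a description. Of the nuclei with Atf3 in COL, 23 of 40 and 10 of 20 also had Igf2bp2, while of the nuclei without Atf3 66 of 818 and 40 of 353 had it. Median depth was alike, at 19719.5 and 19985 UMIs in the nuclei with at least 2 of the genes and 19656 and 18373.5 UMIs in those with none.

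With every nucleus thinned to 4000 UMIs, at least 1 of the 3 genes was seen in 1.66%, 1.35%, 9.21% and 9.65% of the Lef1 and Synpo2 neurons of the 4 libraries and in 2.17%, 1.35%, 8.43% and 11.2% of the Necab1 neurons. The shares were 4.40%, 1.71%, 8% and 6.42% in the glutamatergic neurons without Tcf7l2 and 4.96%, 2.62%, 7.40% and 5.44% in the GABA neurons. The COL libraries lay above the NS libraries in each of the 4 sets, though the genes were picked from values of the Lef1 and Synpo2 neurons. At least 2 of the 3 genes were seen in 0%, 0%, 1.86% and 1.61% of the Lef1 and Synpo2 neurons of the 4 libraries. A count of 0 allows a share of nuclei with these UMIs of up to 0.870% and 0.622% in the NS libraries by the exact interval, and these limits cover counting error within a library only. In the GABA neurons the shares were 0.062%, 0%, 0.411% and 0.396%, where the 0 allows at most 0.420%. In the glutamatergic neurons without Tcf7l2 they were 0.163%, 0%, 0% and 0.338%, where the counts of 0 allow at most 0.785% and 2.91%. The Necab1 neurons had none in 92, 74, 178 and 89 nuclei, which in the COL libraries allows at most 2.05% and 4.06%. These limits lie above the shares in the Lef1 and Synpo2 neurons, and the difference between the 2 sets was not tested.

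In the COL libraries the nuclei with at least 2 of these genes differed from those with none in many others. Since both groups of nuclei were chosen on measured values, the contrast is a description. Of 9743 genes measured, 377 were at least 2-fold higher in both COL libraries (3.87%) and 246 were at least 2-fold lower (2.52%). A gene was measured when the larger of its 2 levels averaged at least 10 CPM over the COL libraries. A gene could thus pass through the nuclei with at least 2 of the 3 genes alone. The higher ones include Atf3, Igf2bp2 and Hrk, by which the nuclei were chosen, and the lower ones include Synpo2 of the rule. Among the higher, Ecel1 had 49.5 and 58.8 CPM in COL replicates 1 and 2 against 3.84 and 4.49 CPM, and Rhoq had 381 and 343 CPM against 37.2 and 38 CPM. Tnfrsf12a, the receptor gene of the cytokine TWEAK, had 21.3 and 37.6 CPM, from 28 and 23 UMIs, against 1.08 and 2.59 CPM. Egr1 had 80.8 and 113 CPM against 7.42 and 7.08 CPM. Nuclear RNAs such as Malat1 also differed, with a list sum of 61607 and 72924 CPM in the nuclei with at least 2 of the genes and 43052 and 54698 CPM in those with none. Beside it, the list sums of ion channels (28030 and 24822 against 41695 and 33260 CPM) and GABA receptors (3880 and 3705 against 5788 and 5142 CPM) were lower, and the part of RNA composition or quality in the contrast was not tested.

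The following genes were also among the higher ones, picked after their values were seen. Bbc3 had 23.6 and 29.4 CPM against 2.02 and 3.28 CPM, and Bcl2l11, the gene of the apoptosis activator BIM, had 77.7 and 137 CPM against 11.3 and 14.5 CPM. Trib3, a target of the integrated stress response, had 8.38 and 14.7 CPM, from 11 and 9 UMIs, against 0.674 and 0.691 CPM. Sesn2, another stress gene, had 19.1 and 31.0 CPM, from 25 and 19 UMIs, against 1.82 and 5.01 CPM. Aldh1l2 had 76.2 and 76.8 CPM against 7.28 and 10.5 CPM. Stat3 had 189 and 167 CPM against 71.6 and 84.3 CPM, and so missed 2-fold in COL replicate 2.

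The lower genes included Synpo2 and Tspear of the set's markers. Synpo2 and Lef1 are genes of the rule, which bounds their levels in the set, and Tspear is not. Synpo2 had 287 and 201 CPM against 934 and 766 CPM. Lef1 had 489 and 310 CPM against 762 and 748 CPM and did not reach 2-fold in COL replicate 1. Tspear had 10.7 and 19.6 CPM against 85.3 and 80.5 CPM. Etv1, a transcription factor gene, had 10.7 and 13.1 CPM against 50.9 and 58.9 CPM, and Chrm2, a muscarinic receptor gene, had 50.3 and 45.7 CPM against 222 and 172 CPM. Gabrd, a GABA-A subunit gene of tonic inhibition, had 19.1 and 18.0 CPM against 60.02 and 71.3 CPM, and Grin2d, an NMDA receptor subunit gene, had 25.1 and 19.6 CPM against 82.2 and 88.6 CPM. The summed list of first-order relay genes was 8351 and 6759 CPM against 11927 and 10996 CPM, short of 2-fold.

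Markers of other cells did not go with these nuclei in 1 direction. The macrophage list summed to 40.4 and 78.4 CPM in the nuclei with at least 2 of the genes and to 26 and 63.9 CPM in those with none. Of this list Gpnmb had 26.7 and 29.4 CPM against 4.65 and 10.9 CPM, at least 2-fold higher in both libraries. The other genes of the list together were lower in both libraries. Among them Lyz2 had 6.10 and 34.3 CPM against 8.50 and 33.8 CPM. Microglia markers summed to 48.0 and 113 CPM against 73.0 and 131 CPM, and oligodendrocyte markers to 590 and 1034 CPM against 511 and 1070 CPM. The 5 neuronal genes of the rule summed to 6413 and 5430 CPM against 6202 and 5785 CPM.

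**Figure D5:**
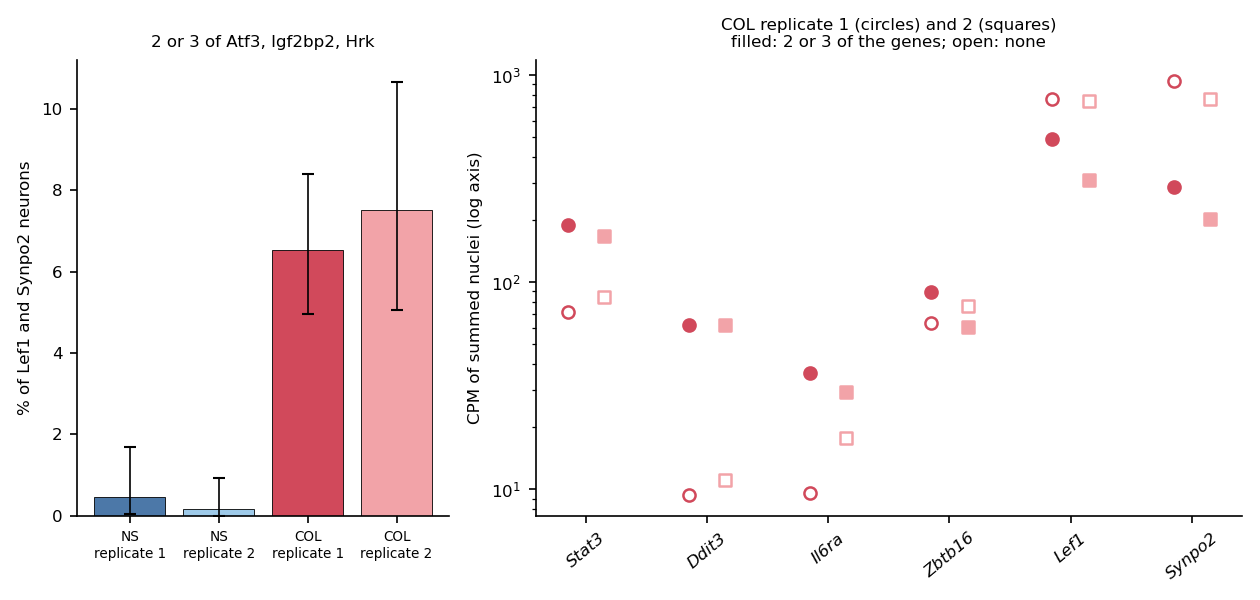
Left, the share of Lef1 and Synpo2 neurons with at least 2 of Atf3, Igf2bp2 and Hrk in each library (bars, %; error bars, exact 95% interval for counting error). Right, the level of 6 genes (CPM, log axis) in COL replicates 1 (circles) and 2 (squares). Filled points are nuclei with at least 2 of the 3 genes, and open points are nuclei with none. Stat3, Ddit3 and Il6ra stood higher in the filled points of both libraries. Lef1 and Synpo2, which the rule used, stood lower in them, and Zbtb16 went in opposite directions in the 2 libraries.

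The change from NS to COL differed between the Lef1 and Synpo2 neurons and the Necab1 neurons for 7 of 17023 genes (0.0411%; edgeR's quasi-likelihood test of the interaction with the library as a block, Benjamini-Hochberg adjustment). All 7 had a more positive change in the Lef1 and Synpo2 neurons, and 5 were genes of the mitochondrial genome. Zbtb16 had 10.9, 21.6, 65.6 and 79.7 CPM in the Lef1 and Synpo2 neurons of the 4 libraries and 13.3, 40.3, 27.7 and 42.1 CPM in the Necab1 neurons, an interaction of 1.66 ± 0.27 (log2, SE) with an adjusted p of 0.0349. Bnc2, the gene of the zinc finger protein basonuclin-2, had 9.84, 10.6, 11.2 and 15.4 CPM against 27.8, 59.4, 8.06 and 9.97 CPM, an interaction of 2.47 ± 0.35 with an adjusted p of 0.0122 in that edgeR test. When the rules asked for at least 5 UMIs of the selecting genes, it was 1.65 with an adjusted p of 0.669 in the same test. In the Lef1 and Synpo2 neurons the log2 fold change of Bnc2 was 0.37, with an unadjusted p of 0.144 by edgeR's quasi-likelihood test. It was -2.22 in the Necab1 neurons, whose NS sums came from 92 and 74 nuclei. The groups did not overlap for Bnc2 in either set. In the Lef1 and Synpo2 neurons that also held for 24.2% of all genes with COL above and 25% with COL below.

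The mitochondrial RNA mt-Nd2 had 127, 86.8, 48.8 and 134 CPM in the Lef1 and Synpo2 neurons and 280, 246, 50.8 and 144 CPM in the Necab1 neurons. The groups overlapped in the former and did not in the latter. mt-Rnr1 had 184, 119, 96.8 and 244 CPM against 401, 296, 82.2 and 269 CPM. The rule had kept nuclei under 5% mitochondrial UMIs, mitochondrial RNA is not made in the nucleus, and its origin in these barcodes was not tested. The number of genes that differed was 154 without NS replicate 1, 64 without NS replicate 2, 4 without COL replicate 1 and 20 without COL replicate 2, and it was 0 by edgeR when every nucleus was thinned to 4000 UMIs. After thinning the interaction was 2.27 for Bnc2 and 1.32 for Zbtb16, and 0.84 to 1.19 for the 5 mitochondrial genes. The Necab1 neurons had median depths of 15709.5, 11537.5, 19080 and 20031 UMIs, lower in both NS libraries than in both COL libraries.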

How the data were processed

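Per the labels and methods, nuclei were run on a droplet system and reads were aligned to mouse mm10 with Cell Ranger 1.2.0. The matrices deposited by the authors hold counts, whole UMIs of a gene in a barcode with no normalization, 1 matrix for each of the 4 libraries. Nuclei were chosen by the gene rule given above and their counts were summed per library, which gave 7641491 to 18867403 UMIs. Sums were tested with edgeR 4.0.16 (its quasi-likelihood test after filterByExpr and TMM scaling, with a threshold of 0.05 on Benjamini-Hochberg adjusted p; R 4.3.3, limma 3.58.1), with DESeq2 1.42.0 as an alternative. The genes that define the nuclei stayed in the fits and in the counts over all genes, and were left out of the counts of gene lists. Each of the tests was first run on simulated data. Libraries of a group were pools of different mice, so p-values measure the spread between such pools, with technical spread included. No doublets or free RNA were removed. Other values were computed in Python 3.11.15 (numpy 2.4.6, scipy 1.17.1, pandas 2.3.3, matplotlib 3.10.9), and intervals are exact (Clopper-Pearson or conditional Poisson). Positions come from GENCODE on GRCm38.

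The members, gene lists and tests were chosen with earlier results of these data known. Genes were named by these rules: against the Necab1 neurons the 10 with the largest smallest fold in each direction, among named genes with at least 10 CPM on average in the higher set; for variation the first 12; for COL against NS up to 6 list members at an unadjusted p under 0.05, up to 3 with the highest CPM and, since none was called, the 12 smallest p-values in each direction with at least 10 CPM on average and no overlap, a number chosen after the values were seen. Some items that these rules name are not reported here. Other genes named were chosen after their values were seen. Alternatives were DESeq2, no low-count filter, library size scaling, a replicate block, thinning to 4000 or 2000 UMIs, other UMI and gene cut-offs, other denominators, and each library left out.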

Additional observations from a re-analysis of the deposited data

Results flagged for a closer look

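The genes whose change from NS to COL differed between the Lef1 and Synpo2 neurons and the Necab1 neurons, by edgeR's test of the interaction, are given here with the difference of the 2 log2 fold changes. The difference was 1.16 for mt-Rnr1, 1.13 for mt-Nd2, 0.97 for mt-Nd1, 0.84 for mt-Rnr2 and 0.94 for mt-Cytb, all RNAs of the mitochondrial genome. It was 2.47 for Bnc2 and 1.66 for Zbtb16. Each kept its sign under the 10 alternatives. The adjusted p stayed under 0.05 in 9 of them for mt-Nd2, 8 for mt-Rnr1 and Bnc2, 7 for mt-Nd1 and mt-Cytb, 6 for mt-Rnr2 and 4 for Zbtb16. Depth per nucleus differed between NS and COL in the Necab1 neurons, and with every nucleus thinned to 4000 UMIs the differences were 1.19, 0.88, 0.89, 0.84 and 0.84 for these mitochondrial RNAs in the order above, 2.27 for Bnc2 and 1.32 for Zbtb16, with none past the threshold.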

How the results depend on the processing

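For COL against NS, edgeR's 0 calls became 497 with DESeq2, 2009 with no filter on low counts, 4 with library sizes alone, 95 after thinning to 4000 UMIs, 1 without the nuclei richest in other cells' markers (added after seeing the data), and 0 to 1488 with a library left out. With the replicate number as a block there were 949 calls, but the numbers share no source in the labels and the 2 pairs deviated together with a correlation of only 0.224 over genes. Of 463 values for 36 named genes, 299 stayed on their side of the threshold, 162 passed it and 2 changed sign, both for Apoe (-0.03 with all libraries, 0.63 without COL replicate 1 and 0.14 without NS replicate 2, against -1.24 without COL replicate 2). The genes differing from the Necab1 neurons' change (7) became 3 with DESeq2, 46 with no filter, 0 after thinning and 4 to 154 with a library left out. The difference in share ranged from -10.0 to 7.99 points with a library left out, and was 3.43 points of nuclei with at least 4000 UMIs and 5.19 points of all nuclei. It was -14.5 points without nuclei holding at least 3 markers of a glia, immune or vascular list, which left 1 of 7 nuclei in COL replicate 2. Genes past 2-fold against the Necab1 neurons (98 higher, 125 lower) were 45 at 3-fold (28 and 17), 59 higher and 111 lower after thinning (54 and 72 shared), 21 and 129 with the rule applied to thinned nuclei (17 and 42 shared), and 108 and 205 with a minimum of 3 CPM. Of the 12 most variable genes, 11 were among the first 12 at 2000 UMIs. The planned fit without nuclei holding glial markers was not run, since it left 1 nucleus in COL replicate 2. The cause of these shifts was not tested.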

Other observations

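Part of the genes of the respiratory chain and of the ribosomal proteins were lower in COL in the Lef1 and Synpo2 neurons, and both groups were collected by the start of their symbols after the values were seen. Of 84 tested genes of the respiratory chain (symbols starting with Nduf, Cox, Uqcr or Atp5), none was higher and 55 were lower at an unadjusted p under 0.05 in edgeR's test, with a median log2 fold change of -0.86 (of all genes, 10.4% were lower). DESeq2 called 22 of them lower, against 1.83% of all genes. Their summed level was 2346, 2697, 1366 and 1906 CPM in the 4 libraries, NS before COL, and 4024, 4087, 1609 and 2561 CPM in the non-neuronal nuclei. Of 81 ribosomal protein genes (Rpl and Rps), 1 was higher and 37 were lower, with sums of 1416, 1523, 546 and 1175 CPM in the set and 3317, 3346, 1311 and 2814 CPM in the non-neuronal nuclei. Without COL replicate 1 the median log2 fold change was -0.49 for the respiratory chain and -0.33 for the ribosomal proteins. Without COL replicate 2 these medians were -1.19 and -1.49. In both groups the COL libraries lay below the NS libraries, and COL replicate 1 was the lowest. The 16 tested genes of the mitochondrial genome had none past an unadjusted p of 0.05 and sums of 1125, 825, 571 and 1486 CPM, with overlapping groups.

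Genes whose symbols start with Gm and a digit, a group also chosen after the values were seen, numbered 2970 tested. Of these 126 were higher and 588 were lower at an unadjusted p under 0.05 (8.25% and 10.4% of all genes), and their summed level was 29607 and 32904 CPM in NS against 26411 and 26325 CPM in COL. In the non-neuronal nuclei the sum was 27758, 29681, 22064 and 23678 CPM. Nell1os and Srrm4os, antisense or overlapping transcripts by their names, were among the lower genes with the smallest p-values. That both COL libraries lay below NS in them was fixed, since only genes with no overlap were taken. Whether counting used the strand is not given in the sources used here, and without it reads of such a transcript and of an overlapping gene cannot be told apart.

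Low counts limit the genes of injury. Trib3 had 0, 3, 24 and 18 UMIs in the set, a rate 9.96 times as high in COL with an exact 95% interval of 3.18 to 50.2 for counting error. Socs3, the feedback inhibitor gene of Stat3 signalling, had 8, 3, 28 and 21 UMIs, a rate 3.17 times as high with an interval of 1.63 to 6.76, and 0.573, 0.286, 10.6 and 10.6 CPM in the non-neuronal nuclei.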
